A study of Homo sapiens with 6 samples.

Results

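The 10 genes described here, BCL2, BCL2L1, MCL1, BCL2A1, BCL2L11, BBC3, PMAIP1, BMF, BAX and BAK1, encode members of the BCL2 protein family that hold back or start mitochondrial cell death. They were chosen by name with earlier results of these data known, so shares of members set beside shares of all genes are descriptive. The estimated reads of all their annotated transcripts were added up per gene. They are 10 of the 35052 genes in the joined table and 79 of its transcripts, and all 10 passed the filter on low counts. The libraries came from EoL-1, an established human leukaemia line with eosinophil features, edited with CRISPR/Cas9. The double knockout of ATF3 and JUN had 3 libraries, and the JUN knockout, against which it was set, had 3 as well. Both genotypes thus carried the JUN edit, and no unedited library was analysed here. Names of the deposited files give every double knockout library its own clone code and give same-numbered libraries of both genotypes one JUN knockout code, so each library may stand for 1 clone. The labels do not say so, nor that the replicates were separate cultures, so the p-values below cover the spread among these libraries and nothing wider.

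The BCL2 family works by direct binding between its members at the outer mitochondrial membrane. Survival members (BCL2, BCL2L1, MCL1, BCL2A1) hold death members in a surface groove. BH3-only members (BCL2L11, BBC3, PMAIP1, BMF) carry a short helix, the BH3 motif, that fits this groove, and some of them also act on the effectors. The effectors BAX and BAK1, once free and active, assemble in the membrane and release cytochrome c, which starts the caspase cascade. Leukaemia cells often depend on BCL2 or MCL1, and drugs that mimic a BH3 helix are used against that dependence.

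The BH3 coding stretch is what all of these genes share, so it is shown for each, read from the main coding transcript in GENCODE release 29 on GRCh38. Each stretch holds 15 codons of a single exon, 5′ to 3′, and capitals mark the codons from the conserved leucine to the conserved aspartate.
BCL2 (chr18:63318346-63318390, minus strand): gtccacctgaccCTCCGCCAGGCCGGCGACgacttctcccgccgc
BCL2L1 (chr20:31721919-31721963, minus strand): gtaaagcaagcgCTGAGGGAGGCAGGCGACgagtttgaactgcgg
MCL1 (chr1:150578862-150578906, minus strand): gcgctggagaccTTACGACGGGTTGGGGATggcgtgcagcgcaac
BCL2A1 (chr15:79970934-79970978, minus strand): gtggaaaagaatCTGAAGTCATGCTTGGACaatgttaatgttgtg
BCL2L11 (chr2:111150091-111150135, plus strand): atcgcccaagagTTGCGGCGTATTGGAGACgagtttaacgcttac
BBC3 (chr19:47226576-47226620, minus strand): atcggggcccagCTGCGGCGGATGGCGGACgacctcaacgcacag
PMAIP1 (chr18:59902661-59902705, plus strand): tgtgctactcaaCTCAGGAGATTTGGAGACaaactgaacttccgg
BMF (chr15:40104192-40104236, minus strand): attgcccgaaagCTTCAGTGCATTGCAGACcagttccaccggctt
BAX (chr19:48955775-48955819, plus strand): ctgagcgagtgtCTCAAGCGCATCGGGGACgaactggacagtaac
BAK1 (chr6:33575384-33575428, minus strand): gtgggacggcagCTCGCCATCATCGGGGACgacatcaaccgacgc
The stretches were found by a search for a leucine and an aspartate at this spacing, with glycine before the aspartate. Where that gave no match, alanine or serine was allowed in place of glycine, and then leucine. The codon before the aspartate, which was thus part of the search, codes for glycine in 7 of these genes, for alanine in BBC3 and BMF, and for leucine in BCL2A1. The transcripts that hold this stretch carried 66.7% to 100% of a gene's TPM (a transcript level scaled for length and library size) in 9 of the genes. In BAX they carried 15.9% to 22% of it.

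The libraries held 26146998 to 29567970 estimated reads. JUN mRNA was present at 3.64, 4.55 and 6.54 TPM in the double knockout and at 3.73, 6.96 and 6.15 TPM in the JUN knockout. ATF3 mRNA was at 9.0, 5.57 and 4.96 TPM in the double knockout and at 14.8, 6.87 and 4.55 TPM in the JUN knockout. An edit need not lower the mRNA, so these levels check neither knockout. Of 10 eosinophil markers, RNASE2 and RNASE3 exceeded a mean of 1 TPM, while EPX, PRG3, CLC and IL5RA had no read in any library. Of 10 markers of T, B, erythroid, fibroblast and epithelial cells, none exceeded a mean of 1 TPM, and their summed level was 0.541 to 1.27 TPM in the double knockout and 1.17 to 1.6 TPM in the JUN knockout.

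BAX had the highest mRNA level and BCL2A1 the lowest, and the order in between was mostly not resolved. Averaged over the 6 libraries, BAX was at 247.9 ± 26.9 TPM, MCL1 at 41.4 ± 1.05 TPM and BCL2 at 36.97 ± 9.81 TPM (SD, n = 6). BBC3 followed at 23.55 ± 5.29 TPM, PMAIP1 at 18.41 ± 3.43 TPM, BAK1 at 14.31 ± 1.36 TPM and BCL2L1 at 13.15 ± 1.44 TPM. BCL2L11 at 8.31 ± 1.8 TPM and BMF at 8.18 ± 3.6 TPM stood above BCL2A1 at 0.966 ± 0.835 TPM. Of neighbours in this order, BAX and MCL1 had ranges that did not touch, and so had BMF and BCL2A1. BCL2 exceeded BBC3 and BCL2L1 exceeded BCL2L11 in 6 of 6 libraries although their ranges overlapped.

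**Figure D1:**
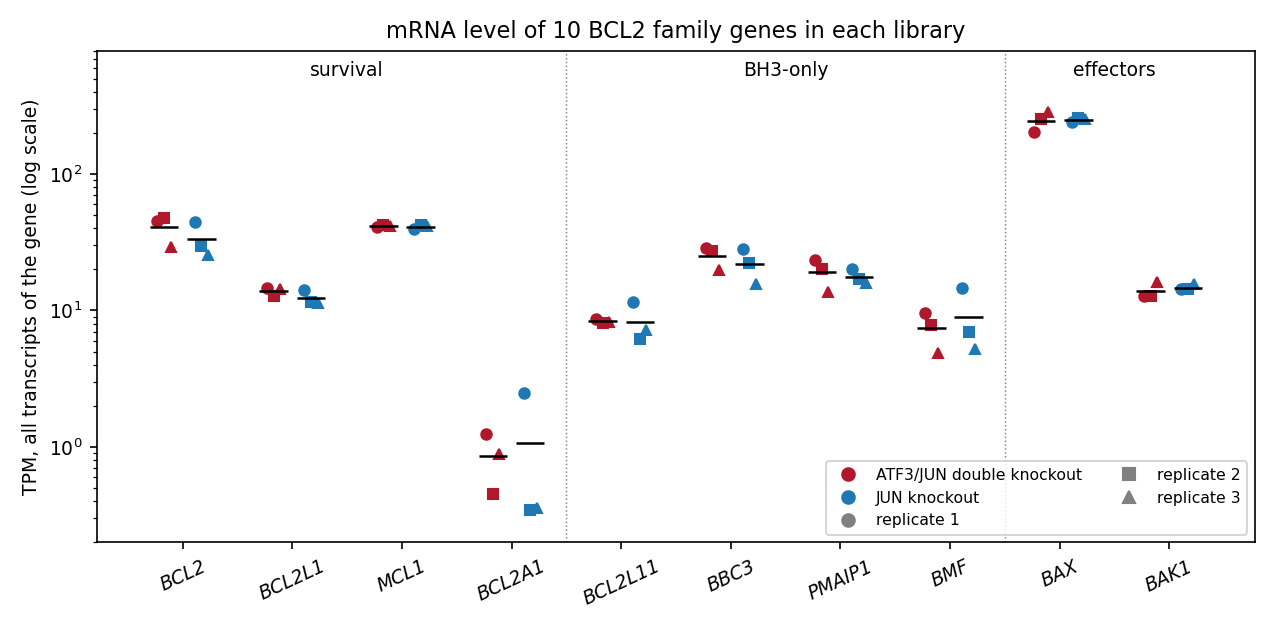
Level of each gene in TPM (log axis) over all its annotated transcripts, with double knockout libraries in red to the left of JUN knockout libraries in blue. Marker shape gives the replicate number and the black line the mean of 3 libraries; BAX lies above all other members, and the genotypes overlap for every gene.

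Among the survival members, MCL1, a short-lived protein that binds BAK1 and BCL2L11, was the steadiest. It was at 40.6, 42.3 and 41.9 TPM in the double knockout and at 39.6, 42.1 and 41.9 TPM in the JUN knockout. All 6 libraries lay close together. BCL2, the target of venetoclax, was at 45.5, 47.3 and 29.4 TPM in the double knockout and at 44.6, 29.5 and 25.5 TPM in the JUN knockout. The number 3 library was the lowest of each genotype, and the double knockout library was higher in each same-numbered pair. In bulk RNA, a lower level in all cells and a level lost in some of them cannot be told apart, here and for the genes that follow. BCL2L1, which encodes BCL-xL, was at 14.6, 12.75 and 14.5 TPM in the double knockout and at 14.1, 11.6 and 11.4 TPM in the JUN knockout. BCL2A1, an NF-kappaB target in blood cells, was close to the limit of detection, with 1.25, 0.451 and 0.884 TPM in the double knockout and 2.51, 0.343 and 0.359 TPM in the JUN knockout. Its estimated reads were 19, 7 and 16 in the double knockout and 39, 6 and 6 in the JUN knockout, so its ratios between libraries carry a large counting error.

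The BH3-only members were present at intermediate levels, with BBC3 and PMAIP1 above BCL2L11 and BMF on average. BBC3 encodes PUMA, which binds all the survival members and is induced by p53. It was at 28.6, 27.2 and 19.7 TPM in the double knockout and at 28.1, 22.2 and 15.55 TPM in the JUN knockout, again lowest in the number 3 library of each genotype. PMAIP1 encodes NOXA, which binds MCL1 preferentially. It was at 23.3, 20.2 and 13.8 TPM in the double knockout and at 20.1, 17.15 and 16.0 TPM in the JUN knockout. BMF, a BH3-only protein linked to the cytoskeleton, was at 9.53, 7.77 and 4.91 TPM in the double knockout and at 14.65, 7.01 and 5.22 TPM in the JUN knockout. The number 3 library was the lowest and the number 1 library the highest of both genotypes for BBC3, PMAIP1 and BMF. BCL2L11, which encodes BIM, was at 8.62, 8.16 and 8.24 TPM in the double knockout and at 11.5, 6.15 and 7.22 TPM in the JUN knockout. Here the double knockout libraries all lay inside the range of the JUN knockout libraries.

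The effectors did not share the low level of the number 3 libraries. BAX was at 202, 253 and 284 TPM in the double knockout and at 239.6, 255 and 255 TPM in the JUN knockout. BAK1, which unlike BAX resides in the outer membrane before activation, was at 12.8, 12.7 and 16.1 TPM in the double knockout and at 14.3, 14.4 and 15.5 TPM in the JUN knockout. The number 3 library was the highest for BAK1 in both genotypes and for BAX in the double knockout. In TPM over all transcripts, the ratio of BAX to BAK1 was 15.7 to 19.9 in the double knockout and 16.4 to 17.8 in the JUN knockout. Its size depended on the scale. Over protein-coding transcripts alone it was 4.78 to 5.65 in the double knockout and 4.54 to 5.25 in the JUN knockout. In estimated reads it was 3.91 to 4.65 in the double knockout and 3.95 to 4.44 in the JUN knockout.

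Adding the levels by role, the survival members came to 102, 102.8 and 86.6 TPM in the double knockout and to 100.8, 83.6 and 79.1 TPM in the JUN knockout. The BH3-only members came to 70.1, 63.3 and 46.6 TPM in the double knockout and to 74.3, 52.5 and 43.9 TPM in the JUN knockout. Survival mRNA thus exceeded the mRNA of these BH3-only members in every library. The ratio was 1.65 ± 0.202 in the double knockout and 1.58 ± 0.222 in the JUN knockout (SD, n = 3 each). This result rests on the genes chosen. BID, a BH3-only gene outside the members, was at 58.7 ± 5.69 TPM in the double knockout and 54.7 ± 7.75 TPM in the JUN knockout. Counting BID as well would put BH3-only mRNA above survival mRNA in every library. The ratio over the members was lowest in the number 1 library and highest in the number 3 library of both genotypes. It was 1.46 and 1.86 in these libraries of the double knockout and 1.36 and 1.8 in those of the JUN knockout. That order held in TPM, while in estimated reads the number 2 library of the double knockout had the highest ratio, 3.62, against 3.52 in its number 3 library. BCL2 and MCL1 together made up most of the survival mRNA, and their order depended on the library. The ratio of BCL2 to MCL1 was 1.12, 1.12 and 0.703 in the double knockout and 1.13, 0.7 and 0.61 in the JUN knockout. In TPM, BCL2 was thus the larger in 2 double knockout libraries and 1 JUN knockout library, and MCL1 in the others. In estimated reads, not corrected for length, BCL2 was the larger in 6 of 6 libraries, with ratios of 1.15 to 2.16. With the effectors counted among the death members, survival mRNA was 0.307 ± 0.0544 of death mRNA in the double knockout and 0.273 ± 0.03 in the JUN knockout. The genotypes overlapped in all these sums and ratios.

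How far death members outweighed survival members depended on which BAX transcripts were counted. With protein-coding transcripts alone, the effectors had a mean of 86.2 TPM over the 6 libraries, against 262.3 TPM with all transcripts, and the ratio of survival to death mRNA was 0.672 ± 0.0976 in the double knockout and 0.617 ± 0.0469 in the JUN knockout. On the scale of estimated reads, which favours long transcripts such as those of BCL2, the ratio was 1.62 ± 0.277 in the double knockout and 1.41 ± 0.0912 in the JUN knockout. The side that appeared larger therefore changed with the scale, while the overlap between the genotypes did not. These are levels of mRNA, and no protein was measured.

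**Figure D2:**
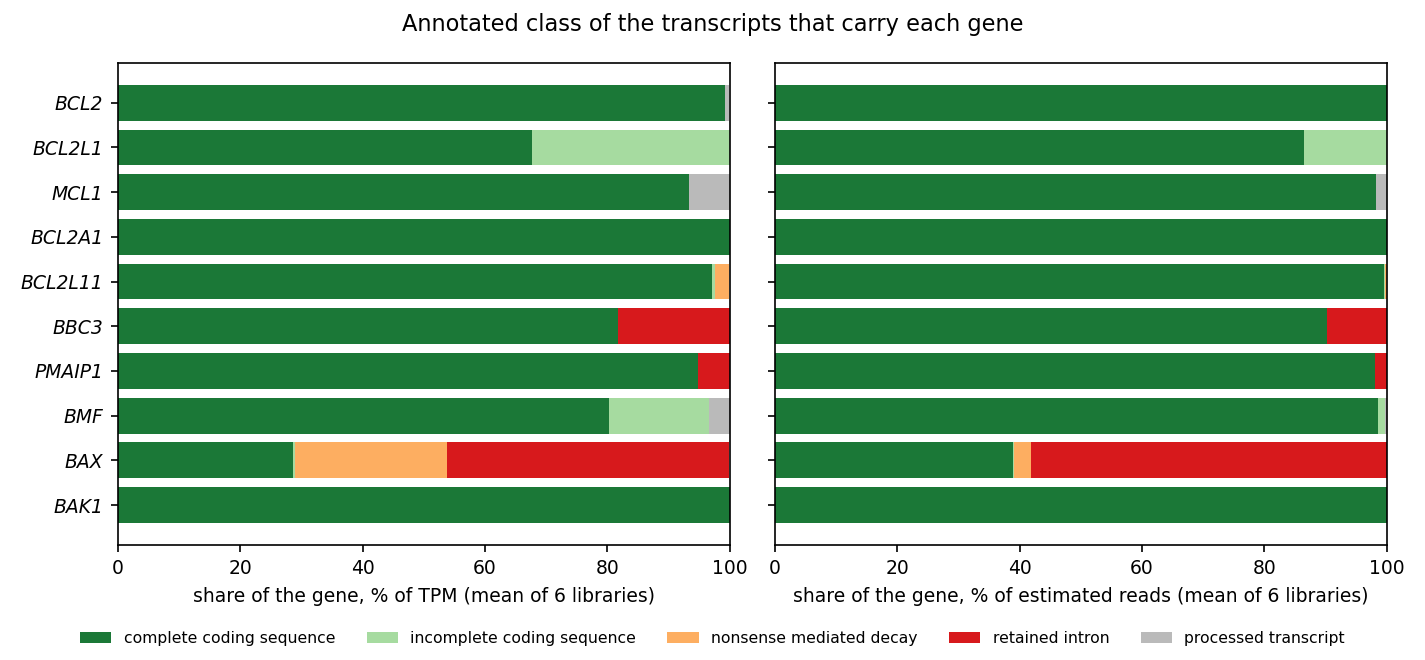
Share of each gene, in percent, carried by transcripts of each annotated class, as a share of TPM (left) and of estimated reads (right), averaged over the 6 libraries. Complete coding sequences make up most of every gene except BAX, where retained-intron transcripts hold 46.2% of TPM and 58.2% of reads.

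BAX was the member whose reads were mostly assigned to transcripts without a full coding sequence. Transcripts annotated as retained introns held 53.3%, 56.6% and 57.2% of its estimated reads in the double knockout, against 63.1%, 59.9% and 59% in the JUN knockout. The share was lower in all 3 double knockout libraries (exact two-sided permutation p = 0.1, the smallest that 3 against 3 allow), a comparison chosen after its values were seen. Such a separation was common: the groups did not overlap for 20.1% of 6568 genes with retained-intron transcripts, and 17.9% had the lower share in the double knockout. On the TPM scale the BAX shares overlapped, at 41.2%, 41.2% and 48.5% in the double knockout and 50.9%, 49.5% and 45.9% in the JUN knockout. BAX-211, a retained-intron transcript of 775 bases, was the largest single entry, with 917, 1203 and 1708 estimated reads in the double knockout and 1085, 1450 and 1299 in the JUN knockout. A transcript of 300 bases annotated for nonsense-mediated decay, BAX-212, had 78.5 to 121 estimated reads, and its short length raised the decay class to 24.8% of BAX TPM, against 2.88% of BAX reads.

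Complete coding sequences held a mean of 38.9% of BAX reads. BAX-201, of 218 residues, had 871.5, 860.4 and 1364 estimated reads in the double knockout and 871.6, 1057 and 1104 in the JUN knockout. BAX-202 encodes the 192-residue form, BAX alpha, the form usually studied. It had 259, 252 and 443 estimated reads in the double knockout and 188, 329 and 134 in the JUN knockout. BAX-202 was the highest in the number 3 library of the double knockout and the lowest in the number 3 library of the JUN knockout. Both transcripts share most of their exons, so the split between them rests on how Salmon shared out reads that match both.

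In most other members a known full-length product led on average. BCL2-201 and BCL2-202 encode the same 239-residue protein, which anchors in membranes by its tail, and together held 88.3 ± 1.31% of BCL2 TPM in the double knockout and 84.6 ± 5.87% in the JUN knockout (SD, n = 3 each). BCL2-203, of 205 residues, took up most of the rest, at 10.7%, 9.98% and 13.2% in the double knockout and 8.84%, 17% and 16.9% in the JUN knockout. MCL1-202, the full-length survival form of 350 residues, held 83.7% of MCL1 TPM in the double knockout and 82.3% in the JUN knockout on average. PMAIP1-202, which encodes the 54-residue NOXA protein, had 890, 908 and 604 estimated reads in the double knockout and 735, 766 and 669 in the JUN knockout. For BCL2L11, which has 25 annotated transcripts, the 198-residue form, BIM-EL, led with a mean of 52.4 ± 4.71% of TPM in the double knockout and 40.3 ± 7.92% in the JUN knockout. A 109-residue form followed with 33.9 ± 4.21% in the double knockout and 38.9 ± 10.5% in the JUN knockout. In the number 2 library of the JUN knockout it led, with 49.9%, against 32.3% for BIM-EL. For BAK1, a 153-residue form held 61.5%, 81.6% and 41.6% in the double knockout and 54.5%, 64.9% and 64.1% in the JUN knockout, with the remainder in the 211-residue form that carries the membrane anchor. The double knockout libraries thus spread more widely than the JUN knockout libraries in the split of BAK1. In the shares of BCL2 and BCL2L11 given above, the JUN knockout libraries spread more widely. These spreads rest on 3 libraries each and on how Salmon shared out reads that match several transcripts.

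BBC3-203 encodes the 193-residue PUMA protein. It had 1054, 909 and 723 estimated reads in the double knockout and 964, 816 and 289 in the JUN knockout. The number 3 library of the JUN knockout was the lowest, and it had 187 reads on BBC3-202, a 131-residue form, where the other libraries had 0 to 93.4. BBC3 summed over all its transcripts was also the lowest in that library.

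For BMF, 1 of the 2 main transcripts was listed at 0 in the libraries numbered 3. BMF-201 and BMF-202 encode the same 184-residue protein and differ at their 5′ ends, which lie 2.4 kb apart on chromosome 15 at 40108874 and 40106448 on the minus strand of GRCh38. BMF-201 had 259.7, 321 and 0 estimated reads in the double knockout and 297.6, 103 and 0 in the JUN knockout. It was listed at 0 in the number 3 library of both genotypes, a pattern picked after its values were seen. Of the 49298 transcripts tested, 0.0345% were at 0 in both of these libraries with at least 100 estimated reads in each of the other 4. That rule follows the values of BMF-201, so the share does not measure how rare such a pattern is. Between replicate numbers edgeR did not call BMF-201 (adjusted p = 0.941), and DESeq2 did (adjusted p = 4.84e-13). BMF-202 had 534, 452 and 509.7 estimated reads in the double knockout and 899, 720.2 and 454 in the JUN knockout, and the number 3 library lay between the others in the double knockout and was the lowest in the JUN knockout. A 0 from an estimate can also mean that reads matching both transcripts were all given to BMF-202. An annotated antisense gene, BMF-AS1, overlaps BMF, and its part in these values was not tested.

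For BCL2L1, a transcript seen in every double knockout library was listed at 0 in the JUN knockout. BCL2L1-203 had 36.7, 133 and 80.5 estimated reads in the double knockout and was listed at 0 in the 3 JUN knockout libraries. Among the transcripts tested, 0.333% were at 0 throughout one genotype with at least 20 estimated reads in each library of the other. That rule has the shape of the values of BCL2L1-203, so the share does not measure how rare such a pattern is. BCL2L1-203 encodes the same 233-residue BCL-xL protein as BCL2L1-201, and edgeR did not call it (adjusted p = 0.296 over all transcripts), while DESeq2 did (adjusted p = 5.1e-07). BCL2L1-202 encodes the 170-residue BCL-xS form, which lacks part of the groove and promotes death. It had 0, 16 and 0 estimated reads in the double knockout, against 77.7, 25.1 and 71.2 in the JUN knockout (edgeR adjusted p = 0.895). The 233-residue product summed to 10.2, 8.29 and 8.75 TPM in the double knockout and to 7.77, 7.83 and 7.4 TPM in the JUN knockout. The genotypes did not overlap in these BCL2L1 entries, which were picked after their values were seen. Of 39 member transcripts tested, 4 had genotypes that did not overlap in CPM, namely BCL2L1-203 (higher in the double knockout) and BCL2L1-202, BCL2L11-222 and BAX-210 (lower), against 14.7% of all transcripts tested. ABALON is annotated antisense within BCL2L1, and antisense genes also overlap BCL2 and BCL2L11. Salmon's strand setting was not given, and the part of these genes in the members' values was not tested.

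**Figure D3:**
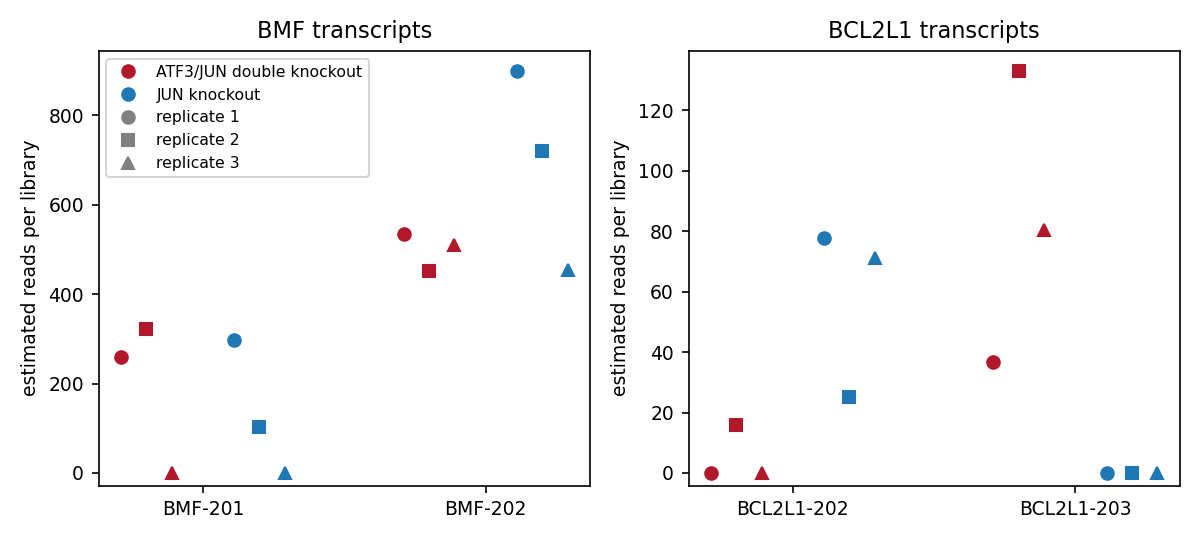
Estimated reads per library for 2 transcripts each of BMF and BCL2L1, with double knockout libraries in red to the left of JUN knockout libraries in blue and shapes for replicate numbers. BMF-201 sits at 0 in the number 3 library of both genotypes, and BCL2L1-203 sits at 0 in all 3 JUN knockout libraries.

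Over transcripts as a whole, edgeR called 0 of 49298 between genotypes (0%; 2923 at an unadjusted p under 0.05) and 0 between replicate numbers (0%; 2327 unadjusted). DESeq2 called 787 (1.6%) and 2166 (4.39%). Its calls included 1 member transcript between genotypes, BCL2L1-203, and 4 between replicate numbers, BBC3-203, BCL2-201, BCL2-202 and BMF-201.

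The double knockout was then compared with the JUN knockout gene by gene, which asks what the ATF3 edit added to the JUN edit. File names give each double knockout library its own clone code, so the edit cannot be told apart from clone, culture and handling. No member passed the test. The quasi-likelihood test of edgeR called 0 of the 10 members and 0 of the 12954 genes tested (0%), with 753 genes (5.81%) and 0 members at an unadjusted p under 0.05. Other settings called no member either, while they called 0.548% of all genes in DESeq2, 0.0309% in limma-voom and 0.00509% with no filter on low counts. The log2 fold changes, double knockout over JUN knockout, lay between -0.24 and 0.31, with 6 members above 0 and 4 below. Their median was 0.0533, against 0.00 over all genes. No member had genotypes that did not overlap in CPM (reads scaled to equal library sizes), against 12.3% of all genes.

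BCL2 had the largest difference in size. It was at 349, 345 and 233 CPM in the double knockout and at 321, 229 and 196 CPM in the JUN knockout, which gave 0.31 as the log2 fold change (SE 0.23, adjusted p = 0.937 in edgeR). In 3 of 3 pairs with the same number the double knockout library was the higher, while the spread within each genotype was larger than the difference between them. With the replicate number as a block, which uses the pairs, the log2 fold change of BCL2 was 0.32 (SE 0.10, edgeR adjusted p = 0.432). BBC3 was at 47.5, 41.4 and 33.4 CPM in the double knockout and at 42.9, 36.6 and 23.9 CPM in the JUN knockout (log2 fold change 0.24, SE 0.23, adjusted p = 0.955). With 1 library left out, the log2 fold change of BCL2 was 0.17 to 0.54 and that of BBC3 0.04 to 0.43, so the size of both rested on single libraries. These were the 2 members with the same direction in 3 of 3 pairs, against 33.2% of all genes. MCL1 had the smallest difference, with a log2 fold change of 0.01 (SE 0.09, adjusted p = 0.992). BCL2L1 had a log2 fold change of 0.14 (SE 0.10), larger than its error. BAK1 (-0.09, SE 0.14), BCL2L11 (0.09, SE 0.16), BAX (-0.05, SE 0.17) and PMAIP1 (0.14, SE 0.18) had errors larger than their log2 fold changes. BMF (-0.21, SE 0.35) and BCL2A1 (-0.24, SE 0.79) were the least precise. No detection limit is given for any member, so the lack of a call does not exclude a moderate change in any of them.

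**Figure D4:**
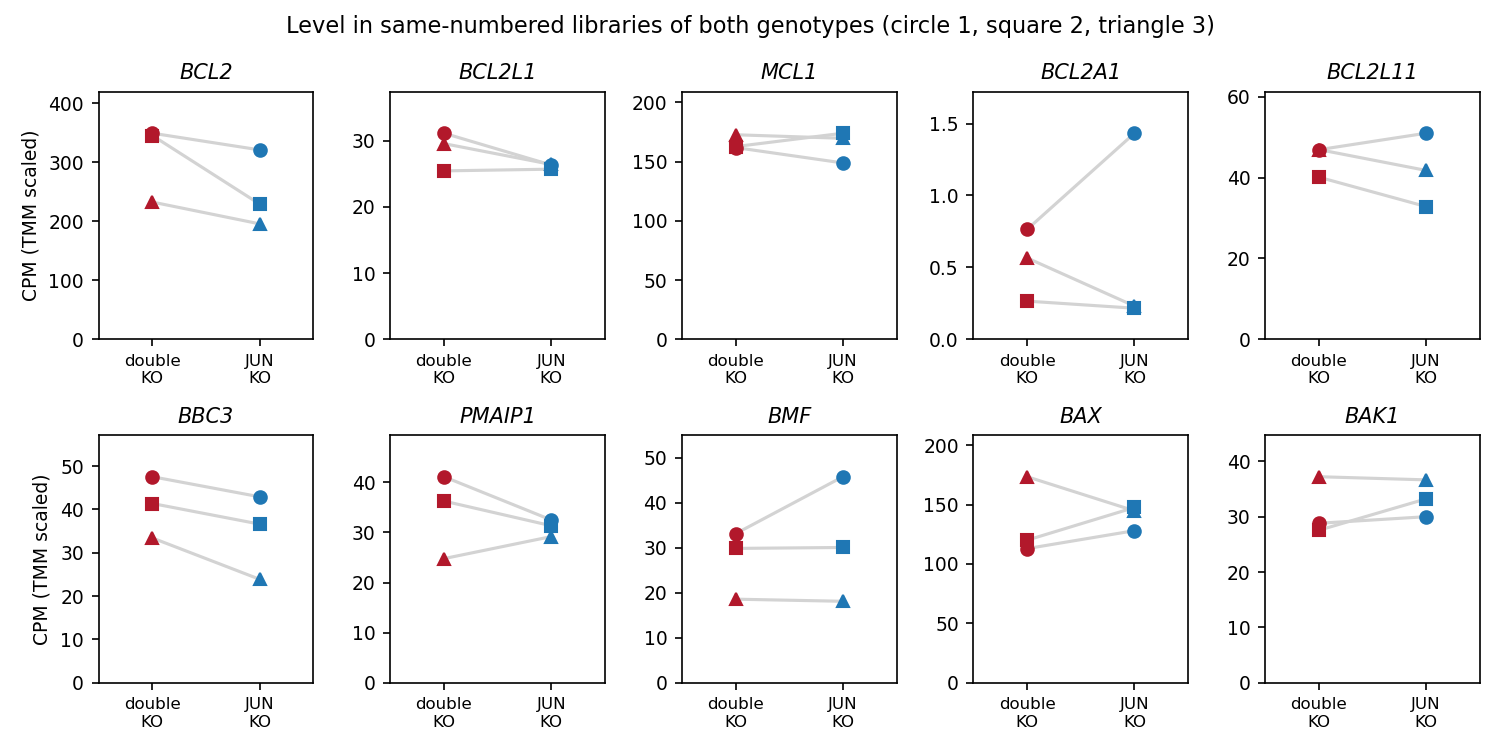
Level of each gene in CPM (linear axes from 0) in the double knockout, left, and the JUN knockout, right, with lines joining libraries of the same replicate number. The lines of BCL2 and BBC3 run the same way in 3 of 3 pairs, and the genotypes overlap in every panel.

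The same libraries were compared by replicate number, with the genotype in the model, which asks whether the lines behind the numbers differ. Clone, culture and handling cannot be told apart in such a number. BMF was the member that passed. It was at 18.6 CPM (double knockout) and 18.1 CPM (JUN knockout) in the libraries numbered 3, against 33.1 and 45.8 CPM in those numbered 1, with 29.8 and 30.04 CPM in those numbered 2. The log2 difference was -1.09 for number 3 against number 1 and -0.39 for number 2 against number 1 (edgeR adjusted p = 0.0332 for both terms together). This call rested on the libraries numbered 3: the adjusted p was 0.148 without the JUN knockout library and 0.0648 without the double knockout library of that number. Across all genes edgeR called 227 (1.75%), and 1.15% were called with number 3 below number 1.

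BBC3 and BCL2 came next and did not pass. BBC3 had a log2 difference of -0.67 for number 3 against number 1 (edgeR adjusted p = 0.0714) and BCL2 one of -0.65 (adjusted p = 0.0837). DESeq2 called both, with adjusted p-values of 0.00999 and 0.000465, and BMF with one of 2.42e-05, among 896 genes called (6.92%). The same 3 members passed in edgeR with no filter on low counts (3.49% of all genes called), and none passed with a length offset (0.471%). At an unadjusted p under 0.05 in edgeR stood 5 members, BCL2, BCL2A1, BCL2L11, BBC3 and BMF, against 20% of all genes. The number 3 library was the lowest in CPM in both genotypes for 4 members, BCL2, BBC3, PMAIP1 and BMF, against 23.3% of all genes. The number 1 library was the highest in both for these 4 and BCL2A1, against 19.5% of all genes. BAX (0.41, adjusted p = 0.269) and BAK1 (0.33, adjusted p = 0.252) had positive log2 differences between number 3 and number 1. The adjusted p was 0.656 for MCL1 and 0.688 for BCL2L1. BCL2A1, with 6 to 39 estimated reads per library, had the largest log2 differences. They were -1.46 for number 3 and -2.18 for number 2 against number 1 (edgeR adjusted p = 0.155). Across the 10 members the median size of the log2 difference between number 3 and number 1 was 0.42, against 0.23 over all genes.

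**Figure D5:**
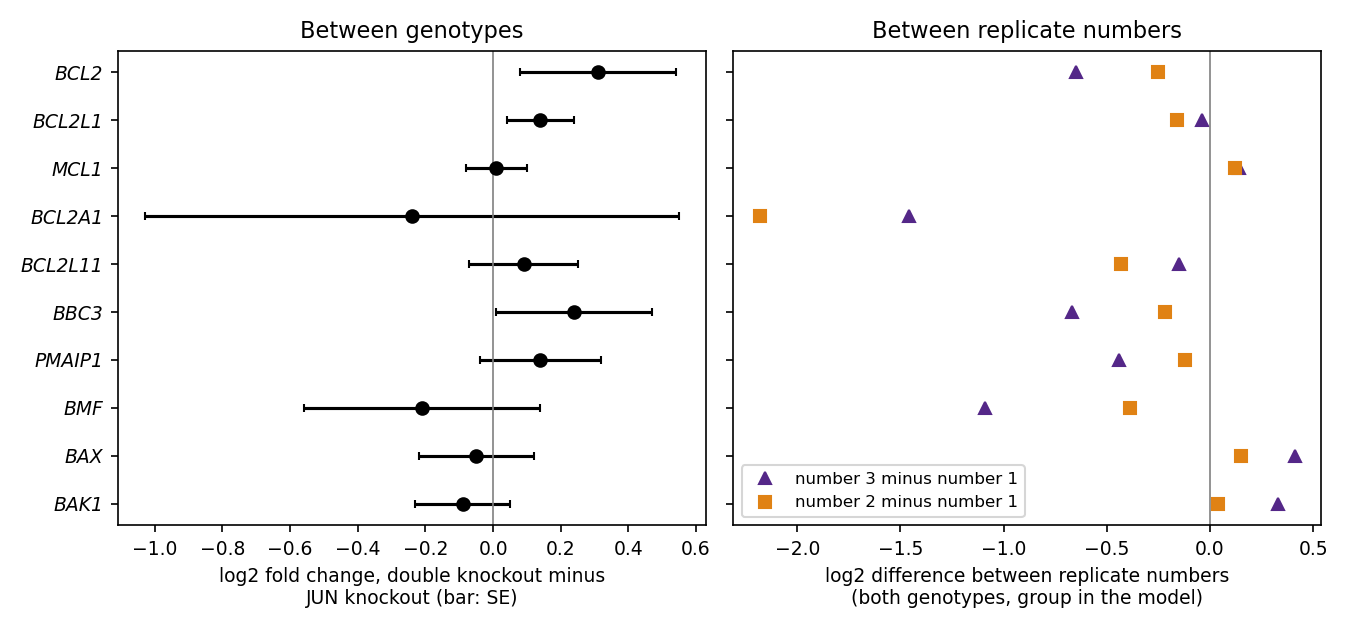
Log2 fold change of each gene between double knockout and JUN knockout with its standard error (left), and log2 difference of replicate numbers 3 and 2 from number 1 over both genotypes (right). Between genotypes all members lie between -0.24 and 0.31. Between numbers BMF reaches -1.09, and BCL2A1, close to the limit of detection, reaches -2.18.

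Genes around the family were examined as 5 lists with 61 of 66 entries tested, and none was called between genotypes. In the 12 tested relatives of the family, 6 had log2 fold changes above 0, and the median was -0.00. BCL2L2, which encodes the survival member BCL-w, had the lowest p among them, at 5.15, 5.46 and 4.99 TPM in the double knockout and 4.31, 4.39 and 4.16 TPM in the JUN knockout (log2 fold change 0.28, edgeR adjusted p = 0.816). BECN1, an autophagy protein with a BH3 motif, had the highest level of this list, at 60.8 ± 8.9 TPM in the double knockout and 60.0 ± 2.16 TPM in the JUN knockout. Of the 17 tested genes of the apoptosome and the caspases, 9 lay above 0, with a median of 0.00. BIRC5, which encodes survivin, had a log2 fold change of -0.26 (adjusted p = 0.82), and CYCS, cytochrome c itself, was the most abundant, at 182 ± 15.2 TPM in the double knockout and 184 ± 32.9 TPM in the JUN knockout.

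Of 11 tested partners and turnover factors, 7 lay above 0, with a median of 0.01. FBXO10, the substrate receptor of a ubiquitin ligase that acts on BCL2 protein, was at 37.3, 31.6 and 35.0 CPM in the double knockout and at 17.2, 19.6 and 27.3 CPM in the JUN knockout. Its groups did not overlap in CPM, as was the case for 12.3% of all genes, and its log2 fold change of 0.70 had an edgeR adjusted p of 0.771. The groups did not overlap in CPM either for BCL2L2, BIRC5 and MYC, each named for the lowest p of its list. YWHAZ, a 14-3-3 protein that can hold phosphorylated BAD, was the most abundant of this list, at 382 ± 20.5 TPM in the double knockout and 359.6 ± 41.6 TPM in the JUN knockout. Of 13 tested regulators of BH3-only genes, 8 lay above 0, with a median of 0.06. MYC, which can raise BCL2L11, was at 759, 759 and 718 CPM in the double knockout and at 552, 576 and 590.3 CPM in the JUN knockout (log2 fold change 0.38, adjusted p = 0.563). The 8 genes of the death receptor route had a median of -0.00, with TNFRSF10B the most abundant and RIPK1 at 0.10 (adjusted p = 0.956).

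Between replicate numbers 3 genes of these lists passed, 2 of the 12 relatives and 1 of the 13 regulators (16.7% and 7.69%, against 1.75% of all genes). BIK, a BH3-only protein of the endoplasmic reticulum, was at 8.23 CPM (double knockout) and 9.24 CPM (JUN knockout) in number 3, against 3.38 and 3.2 CPM in number 1 (log2 difference 1.41, edgeR adjusted p = 0.0317). MOAP1, which binds BAX, was at 8.48 and 13.4 CPM in number 3, against 3.42 and 2.9 CPM in number 1 (1.75, adjusted p = 0.0302). DDIT3, the stress factor CHOP that can raise BBC3 and BCL2L11, was at 8.87 and 10.3 CPM in number 3, against 26.7 and 25.3 CPM in number 1 (-1.44, adjusted p = 0.0216). BIK and MOAP1 were thus higher, and DDIT3 and BMF lower, in the libraries numbered 3. The other lists had no call between numbers. ATF4, the regulator with the highest level, was at 508, 467 and 330.4 TPM in the double knockout and at 535, 453 and 371 TPM in the JUN knockout, lowest in the number 3 library of each.

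For the 4 members that varied most over the libraries (SD of log2 CPM of at least 0.3), the genes with the most similar pattern were looked up among 962 genes of at least 10 CPM that varied as much. Likeness was the root mean square difference of log2 CPM, each gene centred on its own mean over the 6 libraries, so libraries are shared and the values are descriptive. ERMP1 was closest to BCL2 (0.0219), with 103, 101 and 67.5 CPM in the double knockout and 92.6, 65.8 and 54.8 CPM in the JUN knockout. RBCK1 (0.0487) and R3HDM2 (0.0512) followed. SMOX (0.0629), PPP1R15A (0.0681) and ZSWIM4 (0.0689) were closest to BBC3, and UBALD2 (0.0678), PPP1R16B (0.0989) and NOG (0.105) to BMF. For BCL2A1 the nearest genes, CD37, ARRDC4 and ERV3-1, were less close, at 0.206 to 0.232. With 6 to 39 estimated reads per library, BCL2A1 carries a large counting error. The part of that error in its variation and in this weaker likeness was not tested.

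JUN and ATF3 can bind DNA as partners, at sites such as TGACTCA and TGACGTCA, so RefSeq promoter windows from 250 bases before to 50 after a gene's start were searched on both strands. Windows were at hand for 9 members (11 windows, GRCh38.p14), without MCL1. Of 35116 windows, 4.95% held TGACTCA and 1.85% held TGACGTCA; neither motif contains the other. Among the members 1 window, that of BBC3, held TGACTCA, written TGAGTCA on the gene's strand and shown in capitals because it is the match, at chr19:47232764-47232790 on the minus strand.
BBC3: cactggaaggTGAGTCActctggtgag
The match lay 113 bases before the RefSeq start, whereas the transcript that carried most BBC3 reads, BBC3-203, starts downstream of that window at position 47231194. No member window held TGACGTCA. A match in letters is not evidence of binding, and a missing match covers these windows alone.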

How the data were processed

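Polyadenylated RNA of 6 EoL-1 libraries was prepared with a stranded mRNA kit, per the labels' protocols. FastQC 0.11.9, Salmon 1.6.0 and the build hg38 are named in the submitters' processing notes. The deposited files hold, per the file headers, an expected count (estimated reads, made by Salmon by sharing out reads that match several transcripts), a TPM value, a length and an effective length for each of 177456 transcripts. Not given in the sources used here were the strand setting, the transcript set and the read layout.

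Transcripts were joined to GENCODE 29 by identifier without version. 167027 (94.1%) matched, and the other 10429, which carried 3.58% to 3.71% of a library's estimated reads, were left out. BAK1 lies near the major histocompatibility complex, of which alternative copies may be among them, and it has processed pseudogenes, so its reads may be incomplete or shared. TPM and estimated counts were added up per gene, and the counts then rounded. Genes kept by filterByExpr were tested with edgeR 4.0.16 in R 4.3.3 by its two-sided quasi-likelihood F test, after TMM scaling and with a robust dispersion prior, with Benjamini-Hochberg adjustment over all 12954 genes or 49298 transcripts at 0.05. The SE of a log2 fold change is its size over the square root of F. Replicate numbers were tested by 2 terms together with the genotype in the model. Alternatives were RLE scaling, other count filters, DESeq2 1.42.0, limma-voom (limma 3.58.1), a length offset, the replicate block and leaving out each library. The tests were also tried on simulated counts, and no outcome of that trial is given or used here.

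Same-numbered libraries were taken as pairs because the deposited files' names share a clone code, which the labels do not state. As a check, their deviations from the means of their genotypes were correlated, which gave 0.328 for number 1, 0.0958 for number 2 and 0.412 for number 3. The double knockout library numbered 2 had a higher value, 0.112, with the JUN knockout library numbered 1, so the values do not bear out the pairing of number 2. Named were all members and, per list, the gene with the highest mean TPM, the one with the lowest genotype p and those past the threshold. The members and lists were chosen with earlier results of these data known. Figures used matplotlib 3.10.9.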

Additional observations from a re-analysis of the deposited data

How the results depend on the processing

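No setting called a member gene between genotypes. The count of all genes called there was 0 in edgeR, 1 without the count filter, 4 in limma-voom and 71 in DESeq2, and for transcripts 787 in DESeq2, of which 1 was a member's. Between replicate numbers, the genes called were 227 in edgeR, 686 without the filter, 896 in DESeq2 and 61 with a length offset, and 141 to 2634 with a library left out, the highest without double knockout replicate 1. Members called were 3 without the filter (3.49% of all genes called) and 3 in DESeq2 (6.92%), BCL2, BBC3 and BMF each time. In edgeR 1 was called (1.75% of all genes), and 0 with a length offset (0.471%, BMF adjusted p = 0.106). With a library left out, 0 to 5 were called. The 5 came without double knockout replicate 1, a fit that called 19.9% of all genes and had 1 library left of that number. Between replicate numbers DESeq2 called 2166 transcripts, 4 of them members'. With the replicate block, which uses the pairing, edgeR called 0 genes and 0 transcripts between genotypes; BCL2 had a log2 fold change of 0.32 (SE 0.10, adjusted p = 0.432) and BBC3 one of 0.27 (adjusted p = 0.473), and the block changed no call of a member. The BCL2A1 log2 fold change turned positive in limma-voom (0.20) and with the block (0.04). With a library left out, log2 fold changes crossed 0 for BCL2A1 (-0.66 to 1.23), BMF (-0.48 to 0.17), BAX (-0.27 to 0.07), BCL2L11 (-0.06 to 0.26), PMAIP1 (-0.02 to 0.32) and MCL1 (-0.05 to 0.05), none of them called. The mean ratio of survival to death mRNA was 0.290 in TPM, 0.276 to 0.298 with a library left out, 0.644 over protein-coding transcripts and 1.51 in estimated reads. By reads, shares within a gene were 76.3% for BCL2L1-201, 89.1% for MCL1-202 (89.0% of protein-coding TPM), 87.9% for PMAIP1-202, 79.1% for BMF-202 and 34.4% for BAX-211. Causes of these shifts were not tested. Depth limits BCL2A1, with 6 to 39 estimated reads per library.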
